A study of Mus musculus with 6 samples.

Results

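The 42 genes described here encode antiviral effectors, RNA sensors and MAVS, an adaptor of such sensors, and most of these genes are induced by interferons. The genes were listed by name, by the known function of their products, out of the 23557 genes measured. Earlier results of these data were known when the list was made. All 42 were measured and passed the filter on low values. The study asked how the protein kinase inhibitor H89, widely used against protein kinase A, acts on colon tumors. Its transcriptome data come from CT26 tumors, grown from CT26 cells, a mouse colon carcinoma line induced with a chemical. Every mouse, 7 weeks old, female and of the BALB/c strain, received 500000 CT26 cells under the skin. From day 6, mice were given intraperitoneal injections 2 times a week of either H89 at 10 mg/kg in NaCl (3 tumors) or NaCl alone (3 tumors), and tumors were removed and frozen on day 14. The model is thus a single cell line growing outside the colon, and each library holds the RNA of 1 whole tumor. Such a tumor is a mixture of tumor and host cells, and the leukocyte gene Ptprc was read in every tumor (24.1 to 83.8 counts scaled to a total of 1000000 per tumor, CPM). The epithelial keratin gene Krt18 was read at 7.98 to 23.1 CPM. The epithelial adhesion gene Epcam was read at 1.16 CPM in H89-treated tumor 1 and at 0 to 0.097 CPM in the other 5 tumors. H89-treated tumor 1 stood apart in some genes of muscle, fat and epithelium. Acta1, the actin of skeletal muscle, was read at 12.1 CPM there and at 0.036 to 0.55 CPM in the other 5 tumors. The fat cell hormone gene Adipoq was read at 1.47 CPM there and at 0.036 to 0.097 CPM in the others. The epithelial keratin gene Krt19 was read at 2.49 CPM there and at 0 to 0.38 CPM in the others. The fat cell gene Fabp4, at 22.8 CPM there, lay within the NaCl range of 10.6 to 34.2 CPM. Counts of members called by edgeR are given with and without H89-treated tumor 1. Those called by DESeq2 and those with groups apart are given only with it. Total counts ranged from 27067349 to 31958793 per tumor.

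Interferons bind receptors on the cell surface and signal through JAK kinases to STAT transcription factors. Type I interferons assemble a complex with STAT2 and IRF9 that binds the interferon-stimulated response element (ISRE) in the promoters of antiviral genes, and interferon-gamma acts mainly at gamma-activated sites (GAS). The products of these genes detect double-stranded or uncapped RNA, degrade or edit RNA, halt translation, tag proteins with the ubiquitin-like ISG15 or ADP-ribose, and block the entry and release of virus. Several of them, such as the sensors RIG-I and MDA5 and their adaptor MAVS, also start the production of interferon, so the system feeds on its own output.

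The promoters of the members with the smallest and the largest p are shown to let the ISRE be seen where it occurs. Of the 42 members, 35 had a promoter in the RefSeq set used (GRCm38.p6). Each line gives the 250 bases before the transcription start, 5′ to 3′ on the gene's strand, with capitals for matches to the ISRE core GAAANNGAAA (TTTCNNTTTC on the other strand). The first 4 belong to the members with the smallest p of those 35, Ddx60 (chr8:61927837-61928086, plus strand), Eif2ak2 (chr17:78882573-78882822, minus strand), Helz2 (chr2:181242028-181242277, minus strand) and Rnf213 (chr11:119389849-119390098, plus strand). The last 2 belong to the members with the largest p, Ifitm2 (chr7:140955962-140956211, minus strand) and Oasl1 (chr5:114922990-114923239, plus strand).
Ddx60: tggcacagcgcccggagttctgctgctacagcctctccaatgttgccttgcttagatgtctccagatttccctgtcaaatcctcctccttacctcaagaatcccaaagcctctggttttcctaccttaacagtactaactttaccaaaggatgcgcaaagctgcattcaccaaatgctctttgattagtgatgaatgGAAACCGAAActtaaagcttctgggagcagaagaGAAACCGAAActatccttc
Eif2ak2: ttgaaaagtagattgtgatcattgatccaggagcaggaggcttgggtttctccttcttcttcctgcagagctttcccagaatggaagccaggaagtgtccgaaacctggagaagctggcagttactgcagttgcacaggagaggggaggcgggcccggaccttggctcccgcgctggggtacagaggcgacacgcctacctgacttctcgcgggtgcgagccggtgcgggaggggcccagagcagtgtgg
Helz2: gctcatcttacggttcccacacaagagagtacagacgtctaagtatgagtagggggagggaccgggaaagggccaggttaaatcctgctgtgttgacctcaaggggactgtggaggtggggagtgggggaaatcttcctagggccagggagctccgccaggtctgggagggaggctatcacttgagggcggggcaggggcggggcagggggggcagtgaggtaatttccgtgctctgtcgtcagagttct
Rnf213: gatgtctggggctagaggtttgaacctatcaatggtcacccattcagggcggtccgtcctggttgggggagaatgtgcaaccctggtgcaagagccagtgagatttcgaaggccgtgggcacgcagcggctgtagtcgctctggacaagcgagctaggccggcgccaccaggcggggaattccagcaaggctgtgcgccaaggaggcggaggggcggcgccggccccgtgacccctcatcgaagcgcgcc
Ifitm2: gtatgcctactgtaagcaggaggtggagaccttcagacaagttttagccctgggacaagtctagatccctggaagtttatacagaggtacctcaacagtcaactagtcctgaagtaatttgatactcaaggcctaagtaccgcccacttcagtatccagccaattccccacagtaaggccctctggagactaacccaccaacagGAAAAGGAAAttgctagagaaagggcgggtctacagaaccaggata
Oasl1: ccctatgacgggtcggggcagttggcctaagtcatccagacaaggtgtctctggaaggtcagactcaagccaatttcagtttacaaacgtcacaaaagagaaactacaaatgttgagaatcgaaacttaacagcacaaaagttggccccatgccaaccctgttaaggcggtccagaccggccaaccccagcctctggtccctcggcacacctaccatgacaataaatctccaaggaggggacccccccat

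The Ddx60 window held 2 matches, beginning 53 and 19 bases before the start, and the Ifitm2 window held 1, beginning 46 bases before it. No match lay in the other 4 windows. Over all members, 9 of the 35 windows (25.7%) held the ISRE core, against 936 of 27025 RefSeq promoters (3.46%) and 363 of the 10375 with a tested gene (3.5%). The GAS core TTCNNNGAA, the same on both strands, was in 6 of the 35 windows (17.1%) and in 8.13% of all RefSeq promoters. Isg15 had the most ISRE matches, 3, which begin 78, 72 and 66 bases before its start and overlap each other. The median log2 fold change of H89 against NaCl, described further on, was 0.64 in the 9 members with a match and 0.65 in the 26 without. A match is only a run of letters in the window, and the window leaves out everything farther from the start.

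The members lay on 14 chromosomes, and 16 of the 42 fell into 6 runs of neighbours less than 200 kb apart on GRCm38 (GENCODE M21). The Ifit genes shared a stretch of chromosome 19 (34550694 to 34650009) and the Ifitm genes a stretch of chromosome 7 (140954837 to 141010770). On chromosome 5, Oas2, Oas3 and Oas1a lay together (120730333 to 120907521), apart from Oasl2 and Oasl1 (114896936 to 114937915). Parp14, Dtx3l and Parp9 were neighbours on chromosome 16 (35832874 to 35972605), as were Rsad2 and Cmpk2 on chromosome 12 (26442746 to 26479837). Neighbours could differ: the log2 fold changes of Oasl2 and Oasl1 were 1.09 and 0.02, and those of Cmpk2 and Rsad2 were 0.73 and 0.25. Exons of 14 members overlap those of another annotated gene, the longest overlaps being those of Rnf213 with A930037H05Rik (1476 bases), Adar with Chrnb2 (1365 bases) and Herc6 with Gm45193 (1269 bases). Whether the counting used strand is not given in the sources used here, so reads from an overlap could be assigned to either gene.

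Most of the 42 genes were higher on average in H89-treated tumors, but the tumors of a group differed widely and the genes moved together from tumor to tumor. With edgeR's quasi-likelihood test, 26 members were higher in H89-treated tumors at an unadjusted p under 0.05, where 13.1% of the 13118 genes tested were, and 1 was lower, where 11.9% of all genes were. After Benjamini-Hochberg adjustment over all genes, 1 member passed, the helicase gene Ddx60, and 0 were lower, where 0.861% of all genes passed as higher. DESeq2 called 16 members higher after the same adjustment, where it called 4.75% of all genes given an adjusted p. The count at an unadjusted p under 0.05 was 14 without NaCl tumor 3, 13 without H89-treated tumor 1 and 15 without H89-treated tumor 3, and Ddx60 lost its call whichever tumor was left out. Of the 13118 genes, 1719 were higher at that p with all tumors. That number was 1252 without NaCl tumor 3, 1624 without H89-treated tumor 1 and 1391 without H89-treated tumor 3. The log2 fold change of H89 against NaCl was above 0 for 38 members and below 0 for Mavs, Ifitm1, Ifitm2 and Ifi27, of which only Mavs stayed below 0 in limma on log2(CPM + 0.5), scaled by total counts. The median log2 fold change was 0.67 over the members and 0.004 over all genes tested. As these are whole tumors, more RNA per cell and more cells of a kind that expresses these genes cannot be told apart.

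**Figure D1:**
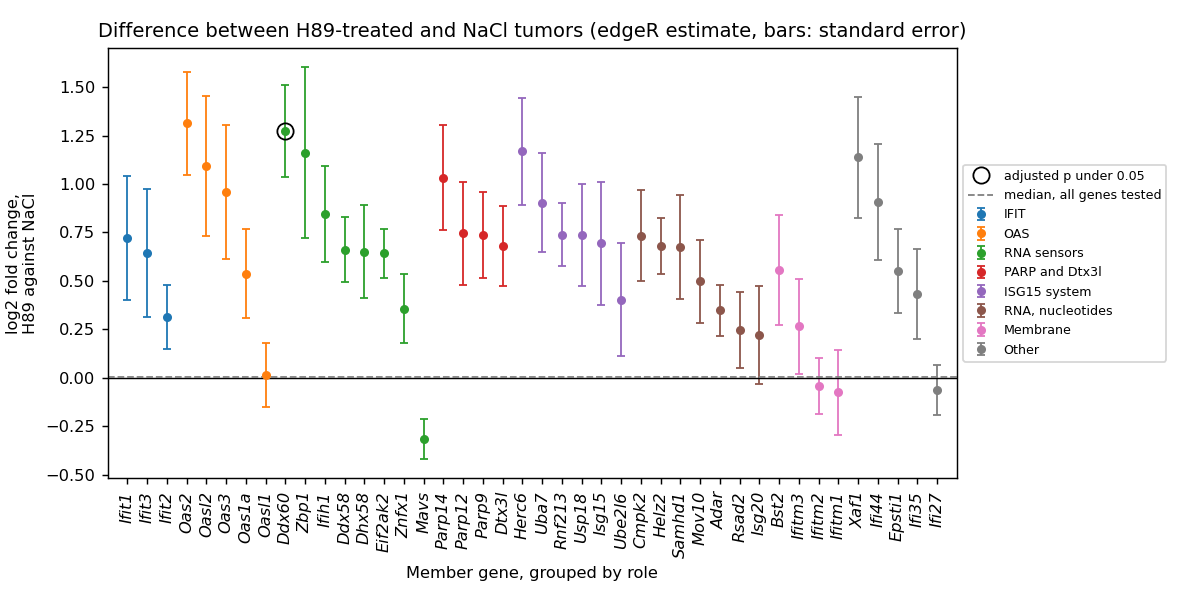
The log2 fold change of H89-treated against NaCl tumors (y axis) is drawn for each of the 42 members (x axis), coloured by role, with points for the edgeR estimate, bars for its standard error, a ring for an adjusted p under 0.05 and a dashed line for the median of all genes tested. The estimates run from -0.32 for Mavs to 1.31 for Oas2, and Ddx60 alone has a ring.

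By role, OAS genes had the largest median log2 fold change (0.96, 5 genes), followed by the PARP genes with Dtx3l (0.74, 4 genes) and the ISG15 system (0.74, 6 genes). The RNA sensors, a set that also holds the adaptor gene Mavs (0.66, 8 genes), and the IFIT genes (0.64, 3 genes) came next. Genes of RNA and nucleotide metabolism (0.50, 7 genes), the other effectors (0.55, 5 genes) and the membrane proteins (0.11, 4 genes) were lower. Of all genes tested, 13.1% were higher at an unadjusted p under 0.05. Members higher at that threshold numbered 4 of 4 in the PARP set, 4 of 5 in the OAS set, 6 of 8 sensors, 5 of 7 in RNA and nucleotide metabolism, 4 of 6 in the ISG15 system, 3 of 5 other effectors, and 0 of the 3 IFIT and 4 membrane genes. With NaCl tumor 3, H89-treated tumor 1 or H89-treated tumor 3 left out in turn, these counts were 2, 1 and 2 for the OAS set, 1, 1 and 2 for RNA and nucleotide metabolism, and 1, 1 and 1 for the other effectors. In the same settings the sensors had 4, 4 and 4 and the ISG15 system 3, 3 and 3. Without NaCl tumor 2 the count for RNA and nucleotide metabolism was 3, and without H89-treated tumor 2 all 3 IFIT genes and 1 membrane gene were higher at that threshold. The PARP count was 3 or 4 with any tumor left out. The medians moved as well: without H89-treated tumor 1 they were 0.39 for IFIT, 0.31 for RNA and nucleotide metabolism and -0.08 for the membrane proteins, and without NaCl tumor 3 they were 0.44, 0.32 and -0.03. Without NaCl tumor 3 the OAS median fell to 0.69, that of the ISG15 system to 0.62 and that of PARP to 0.56. The ISG15 median was above that of PARP without tumor 2 or tumor 3 of either group. The membrane median was highest, at 0.29, without NaCl tumor 1. These differences between sets were not tested.

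The tumors did not contribute equally. NaCl tumor 3 held the lowest value of all 6 tumors for 35 members, and H89-treated tumors 1 and 3 each held the highest for 20. H89-treated tumors 1 and 3 each lay above every NaCl tumor for 39 of the 42 members, whereas H89-treated tumor 2 did so for 18. The shares of all genes tested that go with these counts are not given here, so the counts only describe the members. Within the H89 group, tumor 2 was the lowest for all 42 members, as it was for 24.7% of all genes tested, and within the NaCl group tumor 3 was the lowest for 39, as it was for 33.4% of all genes. Averaged over the members, the deviation from each gene's mean over the 6 tumors, on the log2(CPM + 0.5) scale, was -0.18, -0.13 and -0.68 in NaCl tumors 1 to 3 and 0.57, -0.12 and 0.54 in H89-treated tumors 1 to 3. H89-treated tumor 2 thus lay level with NaCl tumors 1 and 2.

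**Figure D2:**
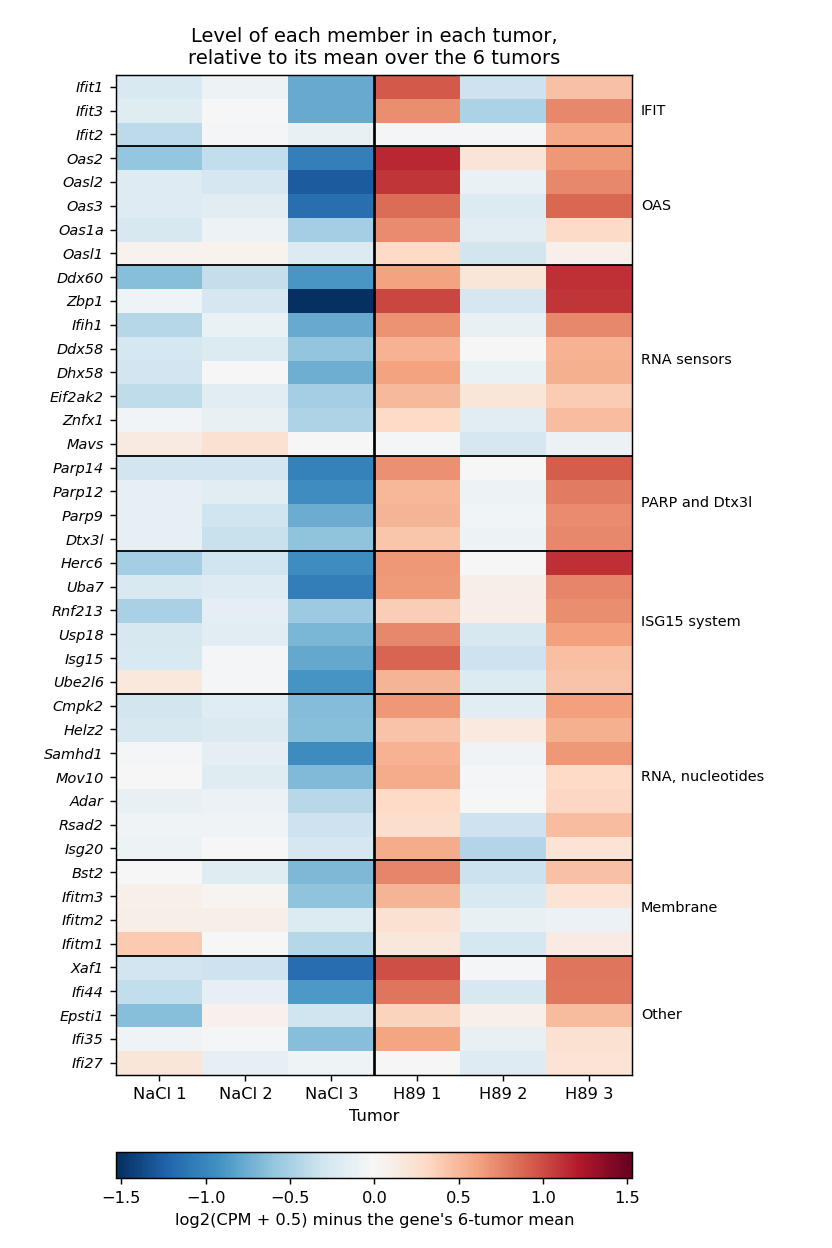
Each row is a member, grouped by role, each column a tumor, and the colour gives log2(CPM + 0.5) minus the gene's mean over the 6 tumors. The column of NaCl tumor 3 is the bluest, those of H89-treated tumors 1 and 3 are red for most genes, and that of H89-treated tumor 2 is close to those of NaCl tumors 1 and 2.

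All 3 H89-treated tumors lay above the 3 NaCl tumors for 18 members, where 20.4% of all genes did, and below them for 1, Mavs, where 10.0% did. Scaling by the TMM factors of edgeR, which are largest in H89-treated tumors 2 and 3, left 11 members above, where 15.2% of all genes were, and again Mavs below, where 15.5% were. The 11 were Oas2, Ddx58, Ddx60, Eif2ak2, Parp14, Uba7, Herc6, Rnf213, Adar, Helz2 and Xaf1. An exact permutation test of a single gene cannot go below p = 0.1 with 3 tumors against 3, and all genes whose groups do not overlap reach that value.

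The RNA sensors included the member that passed the test. Ddx60, a helicase linked to RIG-I-like sensing, was read at 11.6, 14.3 and 9.79 CPM in NaCl tumors 1 to 3 and 28.9, 21.2 and 40.9 CPM in H89-treated tumors 1 to 3. Every H89-treated tumor was above every NaCl tumor, and the lowest of them was tumor 2. Ddx60 rose by 1.27 ± 0.24 on the log2 scale (± standard error, as for all log2 fold changes here), that is 2.42-fold (edgeR quasi-likelihood test, Benjamini-Hochberg adjusted p = 0.0481). With any single tumor left out its adjusted p lay between 0.0743 and 0.149. Eif2ak2 encodes PKR, the kinase that stops translation on binding double-stranded RNA, and was read at 42.4, 49.7 and 38.7 CPM in NaCl tumors 1 to 3 and 78.2, 62.9 and 72.6 CPM in H89-treated tumors 1 to 3. The groups did not overlap, with means of 43.6 ± 5.57 CPM in NaCl tumors and 71.2 ± 7.74 CPM in H89-treated tumors (mean ± SD, n = 3 per group). Its log2 fold change of 0.64 ± 0.13 just missed the threshold after adjustment in edgeR (adjusted p = 0.0523) and passed in DESeq2 (adjusted p = 0.0006795).

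Ddx58 and Ifih1, which encode the cytosolic sensors RIG-I and MDA5, had log2 fold changes of 0.66 ± 0.17 and 0.84 ± 0.25 (edgeR adjusted p = 0.0817 and 0.101). Dhx58, which encodes their relative LGP2, had 0.65 ± 0.24, and Zbp1, a sensor of Z-form nucleic acids that can start necroptosis, had 1.16 ± 0.44. Zbp1 had the largest SD relative to its mean of all members in both groups: it was read at 88.5, 77.4 and 31.8 CPM in NaCl tumors 1 to 3 and 189, 77.9 and 198 CPM in H89-treated tumors 1 to 3. NaCl tumor 3 was far under the other NaCl tumors, and H89-treated tumor 2 was level with NaCl tumor 2. Znfx1, a zinc finger helicase that binds viral RNA, was read at 88.2, 83.4 and 65.2 CPM in NaCl tumors 1 to 3 and 112, 80.9 and 126 CPM in H89-treated tumors 1 to 3, with overlapping groups (log2 fold change 0.36 ± 0.18, adjusted p = 0.254 in edgeR). Mavs, the mitochondrial adaptor through which RIG-I and MDA5 signal, went the other way. It was read at 85.6, 91.6 and 78.7 CPM in NaCl tumors 1 to 3 and 76.6, 65.2 and 73.5 CPM in H89-treated tumors 1 to 3. All 3 H89-treated tumors were under the 3 NaCl tumors, by a small margin between NaCl tumor 3 and H89-treated tumor 1, and the log2 fold change of -0.32 ± 0.10 did not pass after adjustment in edgeR (adjusted p = 0.117).

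OAS enzymes make short oligoadenylates from ATP when they bind double-stranded RNA. Oas2 had the largest log2 fold change of the 42 members and was read at 71.3, 82.9 and 52.2 CPM in NaCl tumors 1 to 3 and 239.8, 124 and 171 CPM in H89-treated tumors 1 to 3. The groups did not overlap, and H89-treated tumor 1 was the highest (log2 fold change 1.31 ± 0.27, adjusted p = 0.0543 in edgeR, 9.46e-06 in DESeq2). Oasl2, an OAS-like protein, was read at 181, 174 and 86.1 CPM in NaCl tumors 1 to 3 and 444, 194 and 346 CPM in H89-treated tumors 1 to 3. Its groups were apart on total-count CPM, with H89-treated tumor 2 only just above NaCl tumor 1, and overlapped after TMM scaling (log2 fold change 1.09 ± 0.36, adjusted p = 0.123 in edgeR). Oas3 and Oas1a had log2 fold changes of 0.96 ± 0.35 and 0.54 ± 0.23, with H89-treated tumor 2 inside the NaCl range for both. Oasl1, which restrains the translation of Irf7 mRNA, was read at 58.6, 58.4 and 48.6 CPM in NaCl tumors 1 to 3 and 69.6, 46.4 and 59.3 CPM in H89-treated tumors 1 to 3. H89-treated tumor 2 was the lowest and tumor 1 the highest of the 6, and the log2 fold change was 0.02 ± 0.17 (edgeR adjusted p = 0.964).

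**Figure D3:**
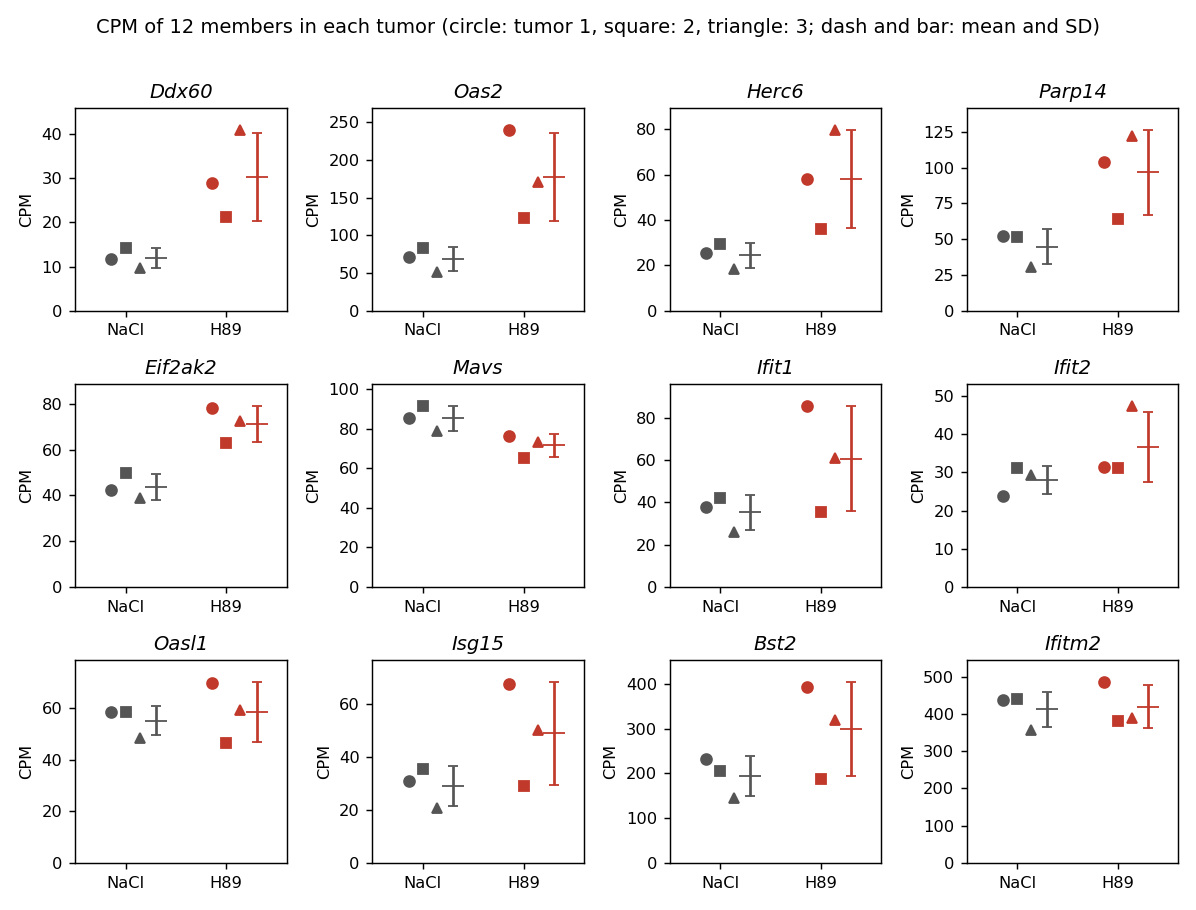
CPM (y axis, from 0) of 12 members in each tumor, with circles, squares and triangles for tumors 1, 2 and 3 of a group and a dash and bar for the mean and SD of 3 tumors. Ddx60, Oas2, Herc6, Parp14 and Eif2ak2 have groups that do not meet, Mavs has the H89-treated tumors below, and for Ifit1, Isg15 and Bst2 the square of H89-treated tumor 2 sits among the NaCl tumors.

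In the PARP set all 4 members had higher means in H89-treated tumors. Parp9 and Dtx3l, whose products form a complex that joins ADP-ribosylation to ubiquitination, and Parp12 and Parp14, which attach single ADP-ribose units, all had H89-treated tumors above NaCl tumors on total-count CPM, and Parp14 alone kept this after TMM scaling. Parp14 was read at 51.9, 51.8 and 30.8 CPM in NaCl tumors 1 to 3 and 104, 63.96 and 122 CPM in H89-treated tumors 1 to 3 (log2 fold change 1.03 ± 0.27, adjusted p = 0.0827 in edgeR). Parp9 was read at 50.8, 44.7 and 32.4 CPM in NaCl tumors 1 to 3 and 79.3, 53.5 and 91.3 CPM in H89-treated tumors 1 to 3 (log2 fold change 0.74 ± 0.22, adjusted p = 0.107 in edgeR). For Parp12 the values were 92.5, 90.7 and 52.3 CPM in NaCl tumors 1 to 3 and 145, 95.8 and 175 CPM in H89-treated tumors 1 to 3 (log2 fold change 0.75 ± 0.27, adjusted p = 0.144 in edgeR). In each of these genes H89-treated tumor 3 was the highest and NaCl tumor 3 the lowest. Dtx3l had a log2 fold change of 0.68 ± 0.21. The exons of Parp9 and Dtx3l overlap by 458 bases on opposite strands, where reads could be assigned to either gene. DESeq2 called all 4 (adjusted p from 0.00139 to 0.0312).

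ISG15 is attached to target proteins by a chain of enzymes. Herc6, which encodes the main mouse ligase for ISG15, was read at 25.4, 29.6 and 18.6 CPM in NaCl tumors 1 to 3 and 58.3, 36.2 and 79.5 CPM in H89-treated tumors 1 to 3. The groups did not overlap, and H89-treated tumor 3 was the highest (log2 fold change 1.17 ± 0.28, adjusted p = 0.0723 in edgeR). Rnf213, which encodes a very large ubiquitin ligase that binds ISG15-tagged proteins, was read at 129.7, 165 and 124 CPM in NaCl tumors 1 to 3 and 238, 196 and 299.7 CPM in H89-treated tumors 1 to 3, again with groups apart (log2 fold change 0.74 ± 0.16, adjusted p = 0.0636 in edgeR). Uba7, the activating enzyme, had a log2 fold change of 0.90 ± 0.26, and Usp18, the protease that removes ISG15 and dampens the type I receptor, had 0.74 ± 0.26. Isg15 itself was read at 30.7, 35.4 and 20.7 CPM in NaCl tumors 1 to 3 and 67.6, 29.01 and 49.97 CPM in H89-treated tumors 1 to 3. H89-treated tumor 2 lay under NaCl tumors 1 and 2 (log2 fold change 0.69 ± 0.32, adjusted p = 0.2198 in edgeR). Ube2l6, the conjugating enzyme, had the largest p of the set, with 159, 139.9 and 76.03 CPM in NaCl tumors 1 to 3 and 204, 123 and 193 CPM in H89-treated tumors 1 to 3 and overlapping groups (log2 fold change 0.40 ± 0.29, adjusted p = 0.422 in edgeR).

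The IFIT proteins bind viral RNA and restrain its translation. Ifit1 was read at 37.7, 42.04 and 25.8 CPM in NaCl tumors 1 to 3 and 85.3, 35.5 and 60.8 CPM in H89-treated tumors 1 to 3 (log2 fold change 0.72 ± 0.32, adjusted p = 0.207 in edgeR). Ifit3 was read at 35.3, 40.2 and 23.3 CPM in NaCl tumors 1 to 3 and 66.2, 28.5 and 66.98 CPM in H89-treated tumors 1 to 3 (log2 fold change 0.64 ± 0.33, adjusted p = 0.267 in edgeR). For both, H89-treated tumors 1 and 3 were above all NaCl tumors and H89-treated tumor 2 lay within the NaCl range. Ifit2 had another pattern. It was read at 23.9, 31.1 and 29.3 CPM in NaCl tumors 1 to 3 and 31.4, 31.3 and 47.4 CPM in H89-treated tumors 1 to 3, with the lowest value in NaCl tumor 1, H89-treated tumors 1 and 2 barely above NaCl tumor 2, and only H89-treated tumor 3 well above the rest (log2 fold change 0.31 ± 0.16, adjusted p = 0.274 in edgeR). Without H89-treated tumor 2, all 3 IFIT genes had an unadjusted p under 0.05, and without any other single tumor 0 did. Ifit3 has a near-identical copy, Ifit3b, between which reads can be split, and in their sum H89-treated tumor 2 again lay within the NaCl range: 46.8, 52.2 and 30.7 CPM in NaCl tumors 1 to 3 and 88.7, 37.2 and 87.8 CPM in H89-treated tumors 1 to 3.

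Among genes of RNA and nucleotide metabolism, Helz2, a helicase that also acts as a nuclear coactivator, was read at 73.8, 75.1 and 55.8 CPM in NaCl tumors 1 to 3 and 119, 97.9 and 128 CPM in H89-treated tumors 1 to 3, with groups apart (log2 fold change 0.68 ± 0.15, adjusted p = 0.0617 in edgeR). Cmpk2, a mitochondrial nucleotide kinase, was read at 24.2, 26.01 and 18.4 CPM in NaCl tumors 1 to 3 and 47.2, 26.3 and 45.96 CPM in H89-treated tumors 1 to 3, with H89-treated tumor 2 barely above NaCl tumor 2 (log2 fold change 0.73 ± 0.24, adjusted p = 0.118 in edgeR). Its neighbour Rsad2, which encodes viperin, an enzyme that makes a chain-terminating nucleotide, had a log2 fold change of only 0.25 ± 0.20. Samhd1, which breaks down deoxynucleotides, had 0.67 ± 0.27, and Mov10, a helicase that restrains retroelements, had 0.50 ± 0.21. Adar, which edits adenosine in double-stranded RNA, had 0.35 ± 0.13, with groups that did not overlap on either scaling. Isg20, an exonuclease, was read at 15.2, 16.03 and 13.4 CPM in NaCl tumors 1 to 3 and 24.1, 11.6 and 18.7 CPM in H89-treated tumors 1 to 3. H89-treated tumor 2 was the lowest and tumor 1 the highest of all 6 (log2 fold change 0.22 ± 0.25, adjusted p = 0.6197 in edgeR, and -0.08 on the log2 scale without H89-treated tumor 1).

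The membrane proteins stood at the other end. Bst2, the tetherin that holds budding virus at the cell surface, was read at 232, 206 and 145 CPM in NaCl tumors 1 to 3 and 393, 186 and 318 CPM in H89-treated tumors 1 to 3. H89-treated tumors 1 and 3 were above all NaCl tumors and tumor 2 was not (log2 fold change 0.56 ± 0.29, adjusted p = 0.265 in edgeR). The Ifitm genes encode proteins that block fusion of virus with cell membranes. Ifitm3 was read at 873, 849 and 538 CPM in NaCl tumors 1 to 3 and 1179, 704 and 957 CPM in H89-treated tumors 1 to 3 (log2 fold change 0.26 ± 0.24, adjusted p = 0.5298 in edgeR). Ifitm2 was read at 438, 439 and 358 CPM in NaCl tumors 1 to 3 and 485, 381 and 389 CPM in H89-treated tumors 1 to 3, with groups that overlapped (log2 fold change -0.04 ± 0.14, adjusted p = 0.885 in edgeR). Ifitm1 had a log2 fold change of -0.07 ± 0.22, and in limma on log2(CPM + 0.5) both Ifitm1 and Ifitm2 were at 0.02. The 3 Ifitm genes are close relatives, so their reads may be shared.

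Of the remaining effectors, Xaf1, which encodes a partner of the apoptosis inhibitor XIAP, was read at 30.997, 30.6 and 16.7 CPM in NaCl tumors 1 to 3 and 75.7, 37.4 and 67.5 CPM in H89-treated tumors 1 to 3. The groups did not overlap (log2 fold change 1.14 ± 0.31, adjusted p = 0.0903 in edgeR). Ifi44 was read at 69.01, 82.1 and 48.5 CPM in NaCl tumors 1 to 3 and 159, 75.5 and 157 CPM in H89-treated tumors 1 to 3, and H89-treated tumor 2 lay between NaCl tumors 1 and 2 (log2 fold change 0.90 ± 0.30, adjusted p = 0.124 in edgeR). Epsti1 and Ifi35 had log2 fold changes of 0.55 ± 0.22 and 0.43 ± 0.23. Ifi27, a small protein of mitochondria and the nuclear envelope, was read at 84.7, 68.2 and 71.2 CPM in NaCl tumors 1 to 3 and 74.5, 64.9 and 85.98 CPM in H89-treated tumors 1 to 3. The groups overlapped throughout (log2 fold change -0.07 ± 0.13, adjusted p = 0.782 in edgeR).

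Between genes, levels can be compared only per length. Counts per kb of exon, scaled to a sum of 1000000 per tumor, put Ifitm3 highest of the members, at 3439.8 ± 857 in NaCl and 4708 ± 1107 in H89-treated tumors (each value with its SD, n = 3), then Ifitm2 at 1946 ± 226 in NaCl and 2161 ± 283 in H89-treated tumors and Bst2 at 666 ± 152 in NaCl and 1115 ± 372 in H89-treated tumors. Ddx60 was the lowest, at 4.25 ± 0.847 in NaCl and 11.8 ± 3.56 in H89-treated tumors.

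The genes that produce and relay interferon signals are the nearest context. Of the 20 interferon genes listed, only Ifng passed the filter, and type I interferon transcripts were at the edge of detection: Ifnb1 had 1, 2 and 0 counts in NaCl tumors 1 to 3 and 6, 3 and 6 counts in H89-treated tumors 1 to 3, and no Ifna gene had more than 2 counts in any tumor. Ifng, the type II interferon of lymphocytes, had 29, 18 and 2 counts in NaCl tumors 1 to 3 and 51, 19 and 76 counts in H89-treated tumors 1 to 3. NaCl tumor 3 was the lowest and H89-treated tumor 2 lay within the NaCl range, as for many members (log2 fold change 1.39 ± 0.74, adjusted p = 0.283 in edgeR).

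Of all 63 genes of induction and signalling listed, 42 were tested, 15 were higher and 1 was lower at an unadjusted p under 0.05, and after adjustment 2 were higher (Tbk1 and Trim24) and 1 was lower (Irf3). Of all 13118 genes tested, 13.1% were higher and 11.9% lower at an unadjusted p under 0.05. After adjustment 113 of them were higher and 95 lower. Stat2 and Irf9, partners in the complex that binds the ISRE, had H89-treated tumors above NaCl tumors. Stat2 was read at 74.5, 71.01 and 39.3 CPM in NaCl tumors 1 to 3 and 187, 96.2 and 172 CPM in H89-treated tumors 1 to 3 (log2 fold change 1.23 ± 0.31, adjusted p = 0.07998 in edgeR). Its lowest value, as for most members, was in NaCl tumor 3. Irf9 was read at 45.7, 44.002 and 29.5 CPM in NaCl tumors 1 to 3 and 79.9, 56.7 and 82.2 CPM in H89-treated tumors 1 to 3 (log2 fold change 0.81 ± 0.20, adjusted p = 0.07998 in edgeR). Irf7, which encodes a factor that amplifies type I interferon, overlapped between groups. It was read at 169.6, 172 and 113 CPM in NaCl tumors 1 to 3 and 364, 162 and 253 CPM in H89-treated tumors 1 to 3 (log2 fold change 0.72 ± 0.30, adjusted p = 0.187 in edgeR). H89-treated tumor 2 lay among the NaCl tumors. Receptor genes Ifnar1, Ifnar2, Ifngr1 and Ifngr2 had log2 fold changes of 0.09, 0.04, 0.07 and -0.08.

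Below the sensors, the kinase and the transcription factor that act after MAVS differed in opposite directions. Tbk1, which phosphorylates IRF3, was read at 26.9, 28.5 and 28.2 CPM in NaCl tumors 1 to 3 and 38.6, 40.4 and 46.6 CPM in H89-treated tumors 1 to 3, and rose by 0.51 ± 0.08 on the log2 scale (edgeR, Benjamini-Hochberg adjusted p = 0.0413). Irf3 was read at 19.9, 26.1 and 20.6 CPM in NaCl tumors 1 to 3 and 13.8, 13.8 and 12.3 CPM in H89-treated tumors 1 to 3, and its log2 fold change was -0.81 ± 0.14 (edgeR, Benjamini-Hochberg adjusted p = 0.0427). In both genes all tumors of a group lay on the same side of the other group, and H89-treated tumor 2 did not stand apart from the other H89-treated tumors, unlike in most members. Both lost their calls with any single tumor left out (adjusted p from 0.0667 to 0.142).

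Relatives of the members that are not on the list were examined in the same way. Of 29 found in the table, 24 were tested, 12 were higher and 0 lower at an unadjusted p under 0.05, and 0 passed after adjustment in edgeR, whereas DESeq2 called 5 higher. Of all genes tested, 13.1% were higher and 11.9% lower at an unadjusted p under 0.05. DESeq2 called 4.75% of all genes given an adjusted p higher. The 12 became 7 without NaCl tumor 3, 7 without H89-treated tumor 3 and 8 without NaCl tumor 2. Mx1, a gene of the Mx GTPase family, was read at 10.5, 16.1 and 10.5 CPM in NaCl tumors 1 to 3 and 33.7, 20.6 and 26.4 CPM in H89-treated tumors 1 to 3 (log2 fold change 1.06 ± 0.24, adjusted p = 0.0652 in edgeR). Mx2, its relative, was read at 7.43, 5.84 and 4.196 CPM in NaCl tumors 1 to 3 and 17.3, 8.26 and 12.9 CPM in H89-treated tumors 1 to 3 (log2 fold change 1.07 ± 0.32, adjusted p = 0.102 in edgeR). For both, H89-treated tumor 1 was the highest and the groups did not overlap. Oas1b, next to Oas1a, was read at 11.7, 12.5 and 6.63 CPM in NaCl tumors 1 to 3 and 31.4, 17.2 and 24.1 CPM in H89-treated tumors 1 to 3 (log2 fold change 1.18 ± 0.30, adjusted p = 0.07998 in edgeR). Ifi44l, a relative of Ifi44, was read at 3.72, 6.39 and 4.09 CPM in NaCl tumors 1 to 3 and 11.6, 6.602 and 11.4 CPM in H89-treated tumors 1 to 3 (log2 fold change 0.99 ± 0.28, adjusted p = 0.0964 in edgeR). On total-count CPM the groups were apart for these genes too. Oas1a, Oas1b and Oas1g are close copies whose reads may be shared, and summed they gave 111, 125 and 92.03 CPM in NaCl tumors 1 to 3 and 242, 128 and 177 CPM in H89-treated tumors 1 to 3, with groups that did not overlap. Ifit3b had a log2 fold change of 0.68 ± 0.36.

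Markers of immune cells moved between tumors too. Counts of markers below are at an unadjusted p under 0.05, where of all genes tested 13.1% were higher with H89 and 11.9% lower. Summed over 9 T cell genes, the level was 35.9, 20.8 and 16.4 CPM in NaCl tumors 1 to 3 and 57.2, 33.1 and 86.3 CPM in H89-treated tumors 1 to 3, and 6 of the 9 genes were higher in H89-treated tumors. This count was 9, 2 and 3 without NaCl tumors 1 to 3 in turn and 3, 8 and 3 without H89-treated tumors 1 to 3, and 0 of the 9 passed after adjustment in edgeR. For 8 genes of NK and cytotoxic cells, of which 3 were higher, the sum was 113, 73.04 and 22.2 CPM in NaCl tumors 1 to 3 and 118, 74.6 and 231 CPM in H89-treated tumors 1 to 3. For both sums NaCl tumor 3 was the lowest of all and H89-treated tumor 2 the lowest of its group. The same held for most members and for the sums of all leukocytes and of plasmacytoid dendritic cells, given below. In both sums H89-treated tumor 2 lay under NaCl tumor 1, and in the cytotoxic sum H89-treated tumor 1 was close to NaCl tumor 1. The cytotoxic count was 6 without NaCl tumor 1 or H89-treated tumor 2 and 2 without NaCl tumor 3, H89-treated tumor 1 or H89-treated tumor 3. Summed over 7 genes of conventional dendritic cells, the level was 10.6, 11.05 and 10.3 CPM in NaCl tumors 1 to 3 and 16.5, 18.4 and 20.9 CPM in H89-treated tumors 1 to 3, and all 5 that could be tested were higher (3 without NaCl tumor 2). Here the groups were apart and H89-treated tumor 2 was not the lowest of its group. The largest part of this sum was Zbtb46, at 7.74, 7.46 and 7.60 CPM in NaCl tumors 1 to 3 and 9.04, 11.6 and 10.4 CPM in H89-treated tumors 1 to 3. After adjustment in edgeR 1 of the 5 passed, Itgae, where 0.861% of all genes passed as higher. With any single tumor left out the edgeR adjusted p of Itgae lay between 0.0667 and 0.147. The 7 plasmacytoid dendritic cell genes, summed, ran from 299 to 369 CPM in NaCl and 320.4 to 516 CPM in H89-treated tumors, with 3 higher and 1 lower of 6 tested. This sum is nearly all Bst2, itself a member, and Tcf4, a transcription factor that many cells express, read at 127, 112 and 143 CPM in NaCl tumors 1 to 3 and 108, 122 and 138 CPM in H89-treated tumors 1 to 3, with overlapping groups. The others were low. Siglech, Ccr9 and Klk1 had every H89-treated tumor above every NaCl tumor, Cox6a2 had them below, and the groups of Ly6d overlapped. Siglech, a surface lectin of these cells, was read at 1.51, 2.07 and 1.22 CPM in NaCl tumors 1 to 3 and 4.06, 3.94 and 3.01 CPM in H89-treated tumors 1 to 3 (log2 fold change 1.13, adjusted p = 0.0722 in edgeR). Ccr9 and Klk1 had log2 fold changes of 1.43 and 1.54, and Cox6a2 had -1.87, while Ly6d was too low to test. For Siglech, Ccr9 and Klk1 H89-treated tumor 2 was not the lowest of its group.

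The other lists are given by their range. The 10 macrophage and monocyte genes summed to 980.1 to 1652 CPM in NaCl and 1426 to 1861 CPM in H89-treated tumors (2 of 10 higher), the 5 genes of all leukocytes to 369 to 458 CPM in NaCl and 414 to 619 CPM in H89-treated tumors (2 of 5 higher), and the 6 B cell genes to 6.54 to 20.02 CPM in NaCl and 35.8 to 41.02 CPM in H89-treated tumors (2 of 3 tested higher). Ptprc, the common leukocyte antigen, was read at 24.1, 31.2 and 29.3 CPM in NaCl tumors 1 to 3 and 47.3, 48.6 and 83.8 CPM in H89-treated tumors 1 to 3 (log2 fold change 1.01 ± 0.21, adjusted p = 0.0547 in edgeR). All 3 H89-treated tumors were above the NaCl tumors, with tumor 3 well above the others. The 6 neutrophil genes summed to 15.4 to 20.1 CPM in NaCl and 20.9 to 36.7 CPM in H89-treated tumors (1 of 4 tested higher) and the 6 fibroblast genes to 1069.7 to 1210.1 CPM in NaCl and 1302 to 1668 CPM in H89-treated tumors (2 of 6 higher). The higher neutrophil gene was Csf3r (log2 fold change 0.90). Cxcr2 had 0.29, and S100a8 and S100a9 had -0.85 and -0.70. The 5 endothelial genes gave 79.4 to 139 CPM in NaCl and 68.7 to 111 CPM in H89-treated tumors (0 of 5 either way), the 6 keratinocyte genes 43.9 to 71.8 CPM in NaCl and 14.4 to 17.6 CPM in H89-treated tumors (1 of 2 tested lower), the 8 genes of colon epithelium 14.96 to 26.1 CPM in NaCl and 12.05 to 15.8 CPM in H89-treated tumors (1 of 4 tested lower) and the 6 proliferation genes 934 to 1072 CPM in NaCl and 1054 to 1223 CPM in H89-treated tumors (0 of 6 either way). The 5 skeletal muscle genes gave 0.753 to 2.03 CPM in NaCl and 1.03 to 17.2 CPM in H89-treated tumors (1 of 2 tested higher) and the 4 adipocyte genes 10.7 to 34.4 CPM in NaCl and 13.6 to 25.3 CPM in H89-treated tumors (0 of 1 tested). The sum of all leukocytes was lowest in NaCl tumor 3 and, within the H89 group, in tumor 2. The endothelial sum was lowest in H89-treated tumor 1. The keratinocyte sum was nearly all Cdsn, read at 41.2, 50.7 and 68.4 CPM in NaCl tumors 1 to 3 and 14.0, 10.6 and 13.2 CPM in H89-treated tumors 1 to 3, whereas Krt5, Krt14 and Lor were under 0.2 CPM in every tumor and Krt10 had a log2 fold change of 0.31. The sum of colon epithelium was mostly Krt18. The other 3 tested genes of that list were low, and with all tumors 0 of them were higher at an unadjusted p under 0.05. Krt19, Krt8 and Cdh1 had log2 fold changes of 2.56 ± 1.15, 1.03 ± 0.86 and 0.05 ± 0.45. Krt19 and Krt8 were highest in H89-treated tumor 1, at 2.49 and 2.14 CPM, against 0 to 0.38 and 0.15 to 1.33 CPM in the other tumors. The upper end of the muscle sum was H89-treated tumor 1 alone, and 0 muscle genes were higher without it or without any 1 NaCl tumor. With a tumor left out, the number higher was 1 to 3 for macrophages and monocytes (1 without NaCl tumor 1, NaCl tumor 3 or H89-treated tumor 3), 1 to 3 for all leukocytes (1 without H89-treated tumor 1 or 3), 1 to 2 for B cells (1 without NaCl tumor 2, NaCl tumor 3 or H89-treated tumor 2) and 0 (without H89-treated tumor 2) to 4 (without NaCl tumor 1) for fibroblasts. Of the genes listed, the neutrophil gene Ly6g and the keratinocyte gene Krt1 were at 0 counts in all tumors. The part of these cells in the members' values was not tested.

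**Figure D4:**
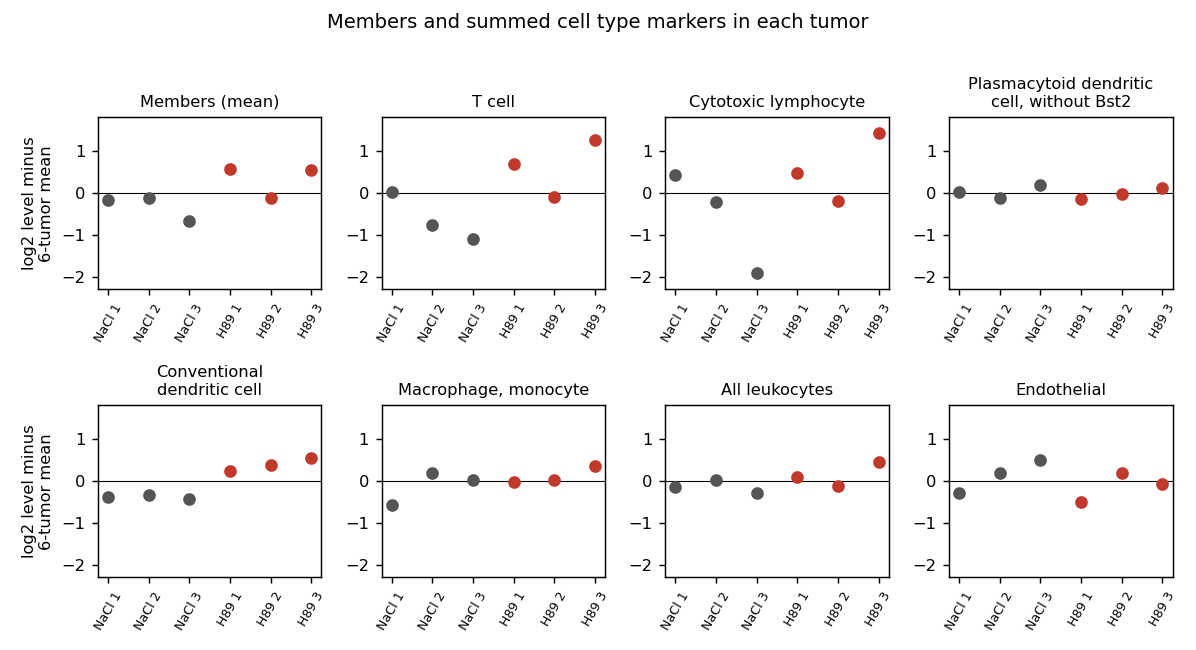
The mean deviation of the 42 members (first panel) and the log2 of the summed CPM + 0.5 of 7 marker lists, each minus its mean over the 6 tumors (y axis), in every tumor (x axis, NaCl in grey, H89 in red). In the T cell, cytotoxic and all-leukocyte panels, as in that of the members, NaCl tumor 3 is lowest and H89-treated tumor 2 lowest of its group. The plasmacytoid dendritic cell panel without Bst2, which is mostly Tcf4, varies little.

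The members followed each other closely over the 6 tumors. Pearson's r of a member with the mean standardised profile of all 42, a profile that includes the member itself, had a median of 0.961, was above 0.9 for 31 members and was lowest for Mavs (-0.17) and Ifi27 (0.44). Among the 10422 other genes with a mean of at least 5 CPM, the 10 with the highest r to this profile (0.985 or more) were Phf11b, Prickle3, Trafd1, Phf11d, Rtp4, Spats2l, Bsn, Slfn1, Zdhhc18 and Gbp7. This likeness rests on 6 tumors that share their treatment groups and is a description. The size of the difference varied among these 10, from a log2 fold change of 0.09 for Zdhhc18 to 1.45 for Gbp7, a guanylate-binding protein.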

How the data were processed

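RNA of 6 CT26 tumors, 3 of NaCl mice and 3 of H89-treated mice, was read on a BGIseq500 system per the labels, and groups and replicate numbers were taken from the sample labels. The authors deposited 1 table of 6 tumors by 23557 genes, read here as estimated counts per gene without scaling for depth or length. The table is called TPM, but its values summed to between 27067349 and 31958793 per tumor. The submitters' processing notes name kallisto, DESeq2 and GRCm38, without versions or settings. No other annotation is given in the sources used here.

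Estimated counts were rounded to whole numbers, and CPM was computed on each tumor's total. Genes with a mean of at least 0.5 CPM over the 6 tumors (13118) entered a fit in edgeR 4.0.16, run under R 4.3.3 (TMM, glmQLFit, glmQLFTest, treatment as the only term), and p was adjusted by the Benjamini-Hochberg method over all of them, with a threshold of 0.05. All tests are two-sided. Standard errors were obtained from the F statistic, as |log2 fold change| over its square root. Single members were also tested by exact permutation (10 splits). The labels do not say more of the origin of the replicates, so p-values measure only the spread between these tumors. A single count weighs under 0.1 CPM in every tumor, so the spread between 3 tumors sets the precision. The fit was tested on simulated data with 200 changed genes.

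The 42 members, their subsets and the other lists were chosen with earlier results of these data known. In each subset, the 2 members with the smallest p and the 1 with the largest p are given in every tumor (all 3 for IFIT), and the rest by their log2 fold change. From the pathway list, Ifnb1, Ifng, Stat2, Irf9, Irf7 and the 2 others with the smallest p are given, and from the relatives Mx1, Mx2, Ifit3b and the 2 others with the smallest p. The rule also names other genes, which are not reported here. Values per tumor of Zbp1, Mavs and Isg15, the receptor genes, Trim24, single marker genes other than Ptprc and the genes with the widest exon overlaps were added after their values had been seen. Positions and exon lengths are those of GENCODE M21 on GRCm38, matched by symbol. Motifs were searched in the 250 bases before each RefSeq start, and a gene with several starts was counted by the one with the most matches. Of the listed names, Tmem173 and Mb21d1 were found as Sting1 and Cgas, and Herc5, Trac and Flg were not found. Alternatives were other filters, normalizations, pseudocounts and tools, a replicate block, and each tumor left out, with DESeq2 1.42.0 and limma 3.58.1.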

Additional observations from a re-analysis of the deposited data

How the results depend on the processing

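The median log2 fold change of the members lay between 0.51 and 0.86 in all settings. Members called higher after adjustment numbered 1 in the edgeR fit, 5 without a filter on CPM, 2 with a mean of at least 5 CPM, 2 with the robust option, 3 in limma on log2(CPM + 0.1), 16 with DESeq2, and 0 with quantile normalization, with voom, with the replicate block and, in each case, with any single tumor left out (lowest 0, highest 0) or with NaCl tumor 3 and H89-treated tumor 2 both left out, a setting chosen after seeing the data. The limma fits on log2(CPM + 0.5) and log2(CPM + 1) called 1 member, Eif2ak2, in place of Ddx60. Of all genes, 0.861% were called higher in the edgeR fit, and 4.75% of those given an adjusted p with DESeq2. The share of all genes called is not given here for the other settings. Members higher at an unadjusted p under 0.05 numbered 26, and 13 to 35 with a tumor left out (14 with NaCl tumor 3 omitted, and 13, 35 and 15 with H89-treated tumors 1, 2 and 3 omitted in turn). Of the 13118 genes tested, 1719 were higher at that p with all tumors. That number was 1252 with NaCl tumor 3 omitted, and 1624, 1366 and 1391 with H89-treated tumors 1, 2 and 3 omitted in turn. Members lower numbered 1, and 0 to 1 with a tumor left out (0 when tumor 2 of either group was omitted). The 18 members with H89-treated tumors above all NaCl tumors became 11 on TMM and 11 on median ratio scaling. The cause of these changes was not tested.

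The sign of the log2 fold change turned for 5 members in these settings. Oasl1 was at -0.00220 with DESeq2, -0.00526 with voom and -0.000758 with the replicate block, and at -0.17 to 0.16 with a tumor left out. Isg20 lay at -0.0793 to 0.46 with a tumor left out. Ifitm1 was at 0.0241, 0.0244 and 0.0237 in limma with pseudocounts of 0.5, 0.1 and 1 and at -0.27 to 0.18 with a tumor left out. Ifitm2 was at 0.10 with quantile normalization, 0.0213, 0.0214 and 0.0213 in limma with the same pseudocounts and at -0.20 to 0.0322 with a tumor left out. Ifi27 was at 0.00526, 0.00527 and 0.00524 in limma with these pseudocounts, and at -0.14 to 0.0511 with a tumor left out.

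Tumors of different groups share replicate numbers. Over all genes tested, deviations from the group mean correlated between same-numbered tumors at r = 0.164, 0.0625 and -0.025, and 1 of the 3 NaCl tumors correlated best with its own number, so the numbers were not taken to pair the tumors. With the replicate block, 18 members were higher and 1 was lower at an unadjusted p under 0.05, and the median log2 fold change was 0.65.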
